A study of Mus musculus with 48 samples.

Results

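The Hox genes of the A, B, C and D clusters were followed in the mouse colon, and their order by cluster and paralog number was used to ask whether the position of the tissue differed between groups of mice. All protein-coding genes of GENCODE vM21 whose symbol consists of Hox, a cluster letter and a paralog number were taken, which gave 39 of the 55401 genes counted. HoxA on chromosome 6 held 11 of them, HoxB on chromosome 11 held 10, and HoxC on chromosome 15 and HoxD on chromosome 2 held 9 each. Messenger RNA of colon tissue was sequenced from 48 male C57BL/6J mice, 4 for every pairing of genotype and circadian time (CT1, CT5, CT9, CT13, CT17 and CT21, in hours of the internal day). All mice carried the floxed gene (Bmal1fl/fl). The 24 control mice were Villin wt/wt, and the 24 Bmal1IEC-/- mice were littermates with Villin CRE/wt, in which the Villin promoter drives Cre in the intestinal epithelium, so that muscle, nerve and connective tissue keep *Bmal1*. The mice had chow ad libitum and were sampled at an age of 18 to 20 weeks on the second day of constant darkness. The labels give the tissue as colon without naming the proximal or the distal part.

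Hox genes encode homeodomain transcription factors that set positions along the head to tail axis of the embryo. Their order within a cluster matches the order of the positions at which they act, with paralog 1 at the head end and paralog 13 at the tail end, where *Hoxa13* and *Hoxd13* pattern the terminal hindgut. Adult gut keeps much of this pattern, both in the muscle and connective tissue and in the epithelium, and *Hoxb13* is known as a gene of the distal colon and rectum.

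Reads counted on genes numbered from 3144997 to 4785844 per mouse. The deleted gene is listed as *Arntl*. Its normalised level (CPM, the read count scaled by the size of the library) over time ran from 4.13 to 74.0 CPM in control and from 22.4 to 47.2 CPM in Bmal1IEC-/- mice, and it was higher in Bmal1IEC-/- mice by 2.08 on the log2 scale at CT9 and lower by 0.89 at CT1. Without the CT1 mice SV384 and SV385 these differences were 2.07 at CT9 and -0.56 at CT1, the latter no longer called (adjusted p = 0.087 from the quasi-likelihood F test in edgeR). With and without these mice, the difference was 1.93 at CT13 and -0.86 at CT21. At CT21 it was called in both fits (adjusted p = 0.0030 with and 0.00026 without them, from the same test). The count takes in all cell types of the tissue. SV384 and SV385, both Bmal1IEC-/-, differed from the others in markers of tissue makeup. SV385 had a summed level of 891 CPM for 7 smooth muscle markers, against 3593 to 5689 CPM in control mice and 3210 to 5331 CPM in the other 22 Bmal1IEC-/- mice, and its 6 epithelial markers were the highest at 10453 CPM. SV384, at 3427 CPM for muscle and 7722 CPM for epithelium, lay just outside the control ranges (4950 to 7645 CPM for epithelium) and inside those of the other 22 Bmal1IEC-/- mice (5783 to 7959 CPM for epithelium). Results are therefore given over all 48 mice and over the 46 mice without this pair. In bulk tissue, fewer cells of a type and less RNA per cell cannot be told apart.

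The Hox RNA of these colons came mostly from the HoxB cluster, and in HoxB it was nearly absent at *Hoxb13*, the next gene behind *Hoxb9*. HoxB genes took 78.3% of all reads on Hox genes, HoxA genes 10.4%, HoxD genes 10.3% and HoxC genes 1.09%. Per kilobase of exon, the mean level over the 48 mice increased along HoxB from 0.328 ± 0.196 CPM for *Hoxb2* through 2.29 ± 0.508 for *Hoxb3*, 8.19 ± 1.60 for *Hoxb4* and 12.2 ± 2.77 for *Hoxb5* to 41.0 ± 7.49 for *Hoxb6* (SD, n = 48). Behind *Hoxb6* it was 19.1 ± 2.53 CPM per kb for *Hoxb7*, 13.5 ± 2.80 for *Hoxb8* and 60.7 ± 6.30 for *Hoxb9*, the highest of the 39 genes (SD, n = 48). The ends of the cluster were nearly silent. *Hoxb1* had 1 read over all 48 mice, and *Hoxb13* had 3 reads, 2 in control mouse SV396 and 1 in Bmal1IEC-/- mouse SV444, with 0 in the other 46.

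**Figure D1:**
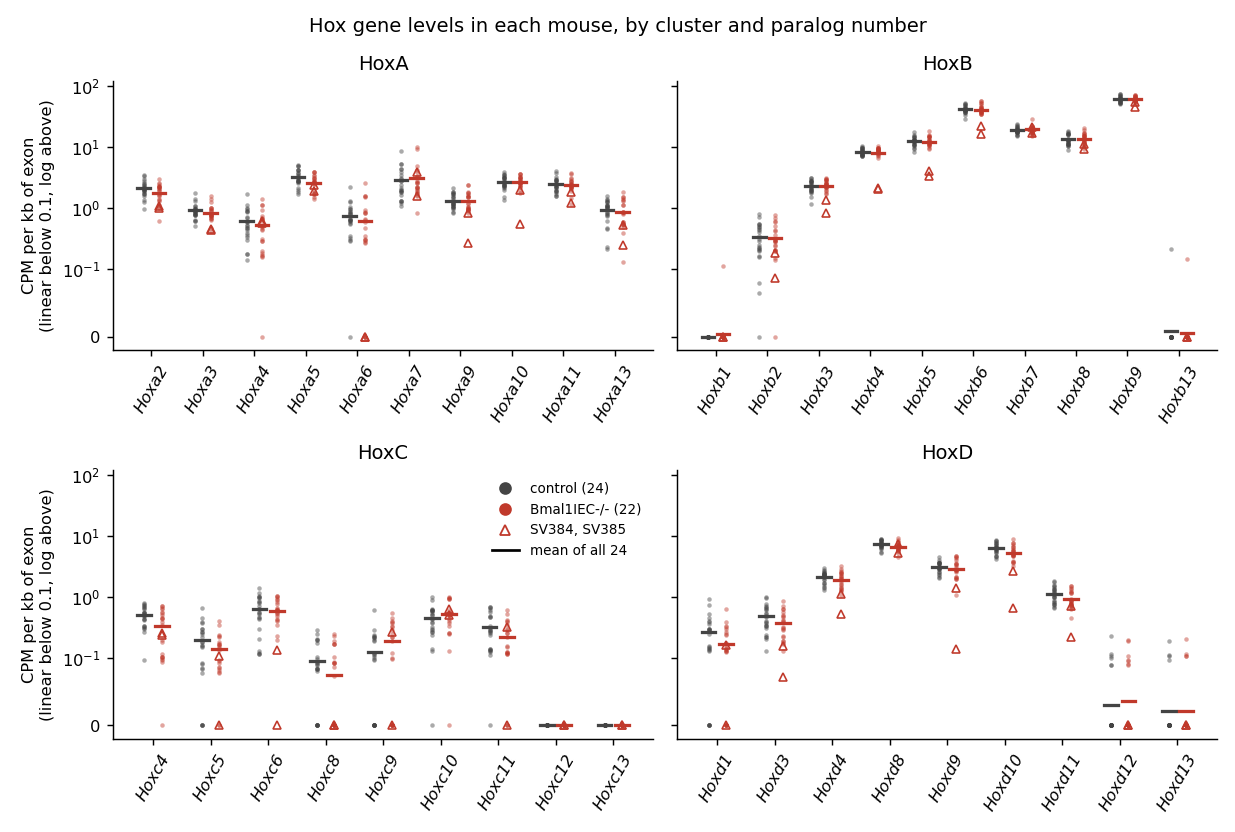
Level of the Hox genes shown in each mouse, in CPM per kb of exon (vertical axis, linear below 0.1 and logarithmic above), ordered by cluster and paralog number. Grey points are 24 control mice, red points 22 Bmal1IEC-/- mice and open triangles the mice SV384 and SV385. Bars are the mean of all 24 mice of a genotype. HoxB rises to *Hoxb6*, is lower at *Hoxb7* and *Hoxb8*, is highest at *Hoxb9* and is near 0 at *Hoxb1* and *Hoxb13*. The bars of the genotypes lie close to each other.

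The other clusters had lower levels. In HoxA the highest mean level per length was that of *Hoxa7*, a gene of the trunk region, with 2.98 ± 1.97 CPM per kb (SD, n = 48). *Hoxa5*, at 2.91 ± 0.91 CPM per kb, and *Hoxa10*, at 2.65 ± 0.67, lay close to it with a smaller spread (SD, n = 48). *Hoxa13* was detected in each mouse with 1 to 18 reads, or 0.893 ± 0.402 CPM per kb (SD, n = 48). In HoxD, *Hoxd8* led with 6.94 ± 1.09 CPM per kb, followed by *Hoxd10* with 5.69 ± 1.61 (SD, n = 48). *Hoxd12* and *Hoxd13* had at most 2 reads in any mouse and 0 in 35 and 40 of the 48 mice. HoxC held no gene above 0.595 ± 0.317 CPM per kb (*Hoxc6*, SD, n = 48), and *Hoxc12* and *Hoxc13* had 0 reads in all 48 mice, which allows up to 3 reads in each. Of the paralog 13 genes, *Hoxa13* alone exceeded 2 reads in any mouse. *Hoxb3*, *Hoxd3* and *Hoxd4* share 52.9%, 62.8% and 52.3% of their exon length with neighbouring genes. On the same strand *Hoxd3* and *Hoxd4* share 62.3% and 52.3%, where the authors' counting dropped reads or could assign them to the neighbour. The overlap of *Hoxb3* is all with its antisense gene *Hoxb3os*, so that loss of reads there depends on the use of strand in counting. The levels of these 3 genes are therefore uncertain.

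Promoter sequences are shown for *Hoxb8*, which was called for change with circadian time in both genotypes, and for *Hoxd10*, whose adjusted p for genotype lay close to the threshold. RefSeq promoters (GRCm38.p6) were at hand for 22 of the 39 members, as 24 windows of 250 bases before the transcription start. The E-box CACGTG, the element bound by the BMAL1 and CLOCK dimer, was searched on both strands and was in 4 of the 24 windows, all in HoxD (*Hoxd13*, *Hoxd11*, *Hoxd10* and *Hoxd1*), and in 6.02% of 32851 windows of all genes. AGGTCA, the core of the element bound by REV-ERB and ROR receptors, was in 6 of 24 and in 14.0% of all windows. TTTATNG, a core bound by CDX proteins of the gut epithelium, was in 2 of 24 and in 9.81% of all windows. The windows below run 5′ to 3′ on the plus strand, and capitals mark matches to any of these motifs.
Hoxb8, chr11:96281655-96281904: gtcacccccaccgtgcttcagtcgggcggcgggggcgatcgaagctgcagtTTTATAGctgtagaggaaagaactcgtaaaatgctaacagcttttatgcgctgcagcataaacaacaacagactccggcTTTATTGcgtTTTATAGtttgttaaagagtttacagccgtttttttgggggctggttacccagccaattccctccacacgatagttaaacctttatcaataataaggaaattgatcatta
Hoxd10, chr2:74691641-74691890: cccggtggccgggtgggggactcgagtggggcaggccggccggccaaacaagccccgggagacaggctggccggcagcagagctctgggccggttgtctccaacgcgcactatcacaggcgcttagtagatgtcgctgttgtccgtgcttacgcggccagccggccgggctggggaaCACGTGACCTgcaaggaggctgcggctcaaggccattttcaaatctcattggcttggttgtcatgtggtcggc
The *Hoxb8* window held no E-box and 3 CDX cores. In the *Hoxd10* window the E-box, 73 bases before the start, overlapped the AGGTCA core on the other strand. A match is a description of letters and not a bound site.

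The comparison of genotypes asked whether loss of *Bmal1* in the epithelium went with a change of Hox levels. Of the 39 genes, 21 passed the filter on low counts (8 of HoxA, 7 of HoxB, 6 of HoxD and no gene of HoxC). With circadian time in the model, none of the 21 reached an adjusted p under 0.05 (quasi-likelihood F test in edgeR, Benjamini-Hochberg adjusted over 14618 genes), whereas 11.7% of all genes tested did. DESeq2 called 2 of them (*Hoxa5* and *Hoxd10*, adjusted p of 0.041 and 0.028), beside 13.4% of all genes. In edgeR 5 of 21 had an unadjusted p under 0.05, beside 26.1% of all genes. All of these 5 (*Hoxa5*, *Hoxd3*, *Hoxd8*, *Hoxd10* and *Hoxd11*) had lower values in Bmal1IEC-/- mice, and 13.1% of all genes were lower with such a p. Over the 46 mice, 0 of 23 genes were called (10.4% of all genes) and 4 of 23 had an unadjusted p under 0.05 (23.3% of all genes).

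*Hoxb9*, the most abundant member, had nearly equal levels in both genotypes. In control mice the lowest, median and highest level was 131, 156 and 189 CPM, and in Bmal1IEC-/- mice 117, 156 and 180 CPM, so that the groups overlapped over nearly their whole range. The log2 fold change was 0.004, with a 95% interval from -0.07 to 0.08. The same interval ran from -0.17 to 0.09 for *Hoxb6* and from -0.07 to 0.14 for *Hoxb7*. Across the 7 tested HoxB genes no log2 fold change was larger than 0.08 in size. For these genes a genotype difference of 1.5-fold lies outside the intervals.

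Among the members that lay nearest to the threshold was *Hoxa5*, known from the patterning of gut and lung mesenchyme. Its level ran from 3.13 to 9.44 CPM in control (median 5.83) and from 2.64 to 7.30 CPM in Bmal1IEC-/- mice (median 4.92). The groups overlapped widely, and the log2 fold change was -0.32 (SE 0.11, adjusted p = 0.055 from the quasi-likelihood F test in edgeR, Benjamini-Hochberg adjusted). *Hoxd10*, a posterior HoxD gene, ran from 7.54 to 15.4 CPM in control (median 11.4) and from 1.20 to 15.7 CPM in Bmal1IEC-/- mice (median 8.998). Its log2 fold change was -0.30 (SE 0.11, adjusted p = 0.055 from the same test in edgeR) and its mean was lower in Bmal1IEC-/- mice at 6 of 6 circadian times. *Hoxd8* and *Hoxd11* also had the lower mean in Bmal1IEC-/- mice at every circadian time, with log2 fold changes of -0.15 (SE 0.06) and -0.29 (SE 0.12). Without SV384 and SV385 the log2 fold change was -0.34 for *Hoxa5*, -0.24 for *Hoxd10*, -0.16 for *Hoxd8* and -0.24 for *Hoxd11*.

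**Figure D2:**
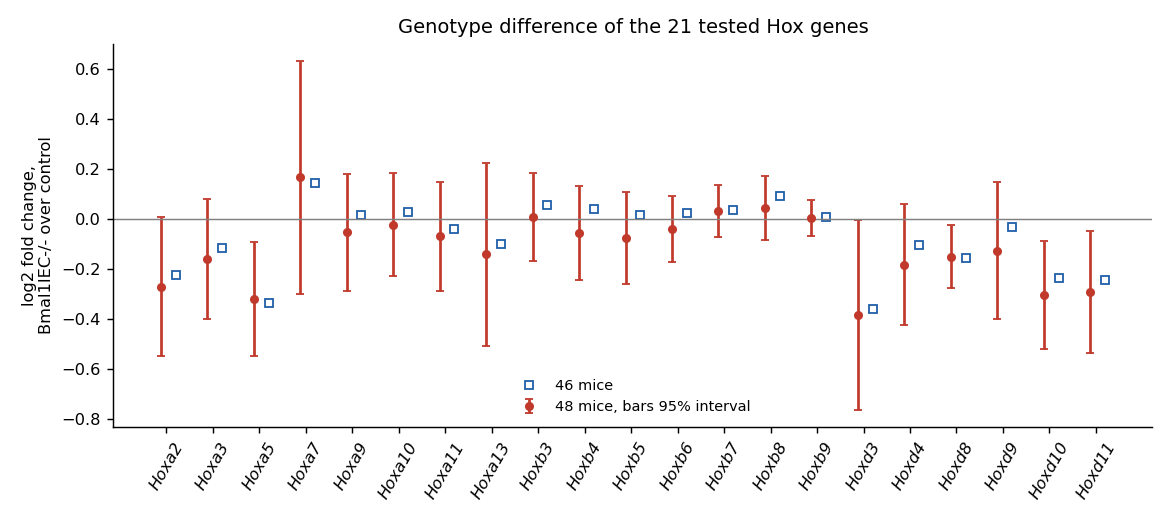
Log2 fold change between genotypes (Bmal1IEC-/- over control) for the 21 Hox genes tested, in cluster order. Red points with bars are estimates over 48 mice with 95% intervals, and blue squares are estimates over the 46 mice without SV384 and SV385; the HoxB genes lie close to 0 and the 6 HoxD genes lie below it.

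The share of genes with a lower value was counted by cluster, with no test of a difference between clusters. All 6 tested HoxD genes and 7 of 8 HoxA genes had a log2 fold change below 0, against 3 of 7 HoxB genes and 49.8% of all genes tested. For the same 21 genes without SV384 and SV385 the counts were 6 of 6, 5 of 8 and 0 of 7, beside 50.2% of all genes. *Hoxb2* and *Hoxc6*, tested only without this pair, were also below 0, at -0.05 and -0.01. The median over the 21 genes was -0.08, beside 0.0006 over all genes tested, and over the 46 mice it was -0.03 for 23 genes. With the summed smooth muscle and epithelial markers as covariates, the median was -0.001 (11 of 21 below 0) and 0 of 21 were called in edgeR (8.50% of all genes). The log2 fold change was then -0.11 for *Hoxd10* (adjusted p = 0.606 in edgeR), -0.12 for *Hoxd11*, -0.12 for *Hoxd8* and -0.35 for *Hoxa5* (adjusted p = 0.061). With these covariates over the 46 mice it was -0.20 for *Hoxd10*, -0.18 for *Hoxd11* and -0.30 for *Hoxa5*. The smooth muscle markers had a median summed level of 4798 CPM in control and 4159 CPM in the 22 Bmal1IEC-/- mice, and 5 fibroblast markers had 863 and 779 CPM. The part of these cell types in the HoxD values was not tested beyond the covariates.

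Ordered by paralog, the genotypes overlapped. As a measure of position, the mean log2 level of the 5 tested genes of paralogs 10 to 13 minus that of the 9 tested genes of paralogs 4 to 8 was taken for each mouse. It was -1.68 ± 0.28 in control mice (SD, n = 24, from -2.08 to -1.20) and -1.77 ± 0.30 in Bmal1IEC-/- mice (SD, n = 24, from -2.58 to -1.21). The difference was -0.09, and over the 46 mice it was -0.07. The measure also differed between circadian times. In control mice it was -1.82, -2.01, -1.87 and -2.08 at CT9 and -1.35, -1.43, -1.30 and -1.20 at CT17, times picked with the values known. The spread within a genotype thus takes in differences between times and is not one of position alone. Taken from summed levels per kb, the measure was -3.05 ± 0.26 in control (SD, n = 24) and -3.23 ± 0.39 in Bmal1IEC-/- mice (SD, n = 24), a difference of -0.18, and of -0.13 over the 46 mice. By either measure the ranges of the genotypes overlapped and the lowest value belonged to SV385. No test was made, since the genes were chosen with results known.

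SV384 and SV385 departed from the other mice in the middle of HoxB and in some genes of HoxA and HoxD. *Hoxb3* had 3.56 CPM in SV384 and 5.71 CPM in SV385, against 4.94 to 13.2 CPM in the 46 other mice. *Hoxb4* had 5.18 CPM in SV384 and 5.41 CPM in SV385, against 16.7 to 26.8 CPM in the 46 other mice, so that both lay at 0.24 and 0.25 of the median of the others. *Hoxb5* had 9.39 and 11.1 CPM against 22.6 to 50.4 CPM in the others. *Hoxb6* had 32.4 and 43.0 CPM against 57.2 to 110.2 CPM in the others. The next genes of the cluster lay inside or close to the range of the others. *Hoxb7* had 25.9 and 32.5 CPM against 23.1 to 44.4 CPM, and *Hoxb8* had 24.3 and 29.5 CPM against 23.4 to 54.0 CPM, both inside the range of the other mice. *Hoxb9* in SV385, at 139 CPM, was inside the range of 131 to 189 CPM, and in SV384, at 117 CPM, it was just below. Outside HoxB, *Hoxa3* lay at 0.52 of the median of the others in SV384 and 0.54 in SV385, and *Hoxd4* at 0.52 and 0.24. *Hoxa7* (1.67 and 0.69) and *Hoxd8* (1.04 and 0.75) were not low in SV384.

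The summed level of *Hoxb3* to *Hoxb6* divided by that of *Hoxb7* to *Hoxb9*, a ratio chosen after these values were seen, was 0.30 in SV384 and 0.32 in SV385. It ran from 0.47 to 0.84 in the 24 control mice (median 0.68) and from 0.54 to 0.83 in the other 22 Bmal1IEC-/- mice (median 0.67). Only these 2 mice lay below the control range. Their posterior genes differed from each other. *Hoxd9* had 0.30 CPM in SV385 (1 read) and 2.91 CPM in SV384 (9 reads), with a median of 6.42 CPM in the others. *Hoxd10* had 1.20 CPM in SV385 and 4.86 CPM in SV384, with a median of 10.6 CPM in the others, and *Hoxa10* had 1.804 and 6.47 CPM, with a median of 8.69 CPM. Of the 21 genes, 7 were below all 46 other mice in SV384 and 10 in SV385, where 9.13% and 17.3% of all genes tested were.

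**Figure D3:**
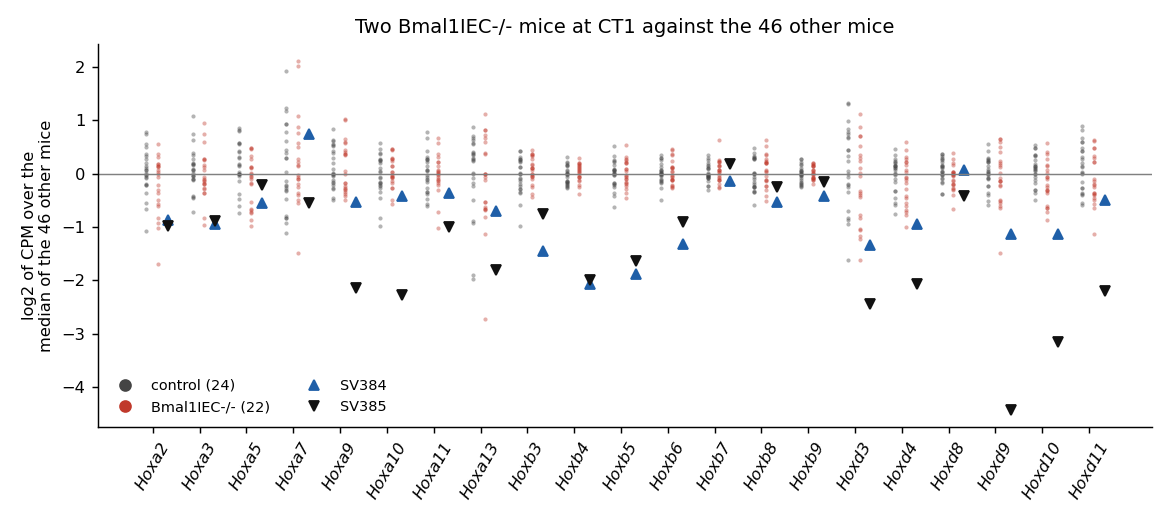
Level of the 21 tested Hox genes in SV384 (blue triangles pointing up) and SV385 (black triangles pointing down), as log2 of the CPM over the median of the 46 other mice, which are shown as grey (control) and red (Bmal1IEC-/-) points. *Hoxb4*, *Hoxb5* and *Hoxb6* are low in both mice while *Hoxb7*, *Hoxb8* and *Hoxb9* lie near 0, and *Hoxd9*, *Hoxd10* and *Hoxd11* are low in SV385.

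In reads, SV384 and SV385 had 16 and 18 on *Hoxb4*, 29 and 37 on *Hoxb5* and 100 and 143 on *Hoxb6*. In SV385 the markers of smooth muscle and of fibroblasts were low as well. All 7 smooth muscle markers were below the control range in SV385, and 1 of 7 was in SV384 (*Myh11*, the myosin heavy chain of smooth muscle, with 1061 CPM against at least 1378 CPM in control mice). The 5 fibroblast markers summed to 228 CPM in SV385 and to at least 550 CPM in each of the other 22 Bmal1IEC-/- mice. In SV384 the fibroblast markers were at 948 CPM, inside the control range of 686 to 1022 CPM, while *Hoxb4*, *Hoxb5* and *Hoxb6* had lower values than in SV385. Both mice were low in the 2 markers of interstitial cells of Cajal, the pacemaker cells of gut muscle, with 181 CPM in SV384 and 176 CPM in SV385 against 219 to 391 CPM in control and 226 to 388 CPM in the other 22 Bmal1IEC-/- mice. The 4 glial markers (20.7 CPM in SV384 and 13.2 CPM in SV385) and the 2 endothelial markers (49.8 and 25.0 CPM) were also below control mice. Control mice began at 22.5 CPM for glia and 52.5 CPM for endothelium, and the other 22 Bmal1IEC-/- mice at 16.8 and 50.5 CPM. Of this pair, only SV385 had the 3 immune markers (14.4 CPM) and the 5 neuronal markers (44.5 CPM) below control mice. Control mice began at 25.8 CPM for immune and 54.3 CPM for neuronal markers. The other 22 Bmal1IEC-/- mice began at 22.4 and 46.5 CPM, also below control mice. The part of tissue makeup in the values of these mice was not tested.

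The genotype comparison at CT1 rested on few mice. Over 48 mice, 4 of 21 members were called at CT1, all lower in Bmal1IEC-/- mice, beside 10.9% of all genes called lower (24.4% called in either direction). They were *Hoxa9*, *Hoxd10*, *Hoxb4* and *Hoxb5*, with log2 fold changes of -0.93 (SE 0.29), -0.79 (SE 0.29), -0.62 (SE 0.23) and -0.60 (SE 0.23), and adjusted p from 0.015 to 0.045 (quasi-likelihood F test in edgeR, Benjamini-Hochberg adjusted). Over the 46 mice 0 of 23 were called at CT1 (1.47% of all genes) and 0 of 23 had an unadjusted p under 0.05 (16.1% of all genes). Leaving out 1 mouse at a time, 0 were called without SV385 and 0 without SV469, 1 without SV384, SV454 or SV468, and 8 without SV480. Over the 46 mice without SV384 and SV385, the log2 fold change at CT1 was 0.04 for *Hoxb4* and 0.02 for *Hoxb5*. That of *Hoxa9* was -0.62 (adjusted p = 0.339 from the same test in edgeR). At the other 5 circadian times 0 of 21 were called in edgeR over 48 mice. All genes were called there at 0.363% (CT5), 1.43% (CT9), 3.48% (CT13), 0.869% (CT17) and 0.349% (CT21). An unadjusted p under 0.05 was found for 1 member at CT5 (5.21% of all genes), 2 at CT9 (9.12%), 1 at CT13 (15.4%), 1 at CT17 (6.70%) and 2 at CT21 (6.77%).

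The comparison across circadian times asked whether Hox levels changed over the day within a genotype. In control mice 4 of 21 genes changed with time (*Hoxb9*, *Hoxb8*, *Hoxa5* and *Hoxa7*, adjusted p of 0.0013, 0.0025, 0.014 and 0.048 from the quasi-likelihood F test in edgeR, Benjamini-Hochberg adjusted), beside 40.0% of all genes. In Bmal1IEC-/- mice 5 of 21 did (*Hoxa9*, *Hoxb8*, *Hoxb3*, *Hoxb6* and *Hoxd10*, adjusted p of 0.0037, 0.013, 0.031, 0.035 and 0.045 from the same test in edgeR), beside 28.1% of all genes. Without SV384 and SV385 the counts were 8 of 23 in control (43.8% of all genes) and 4 of 23 in Bmal1IEC-/- mice (21.6% of all genes). The control mice were the same 24 in both fits, which share the spread estimated over all groups. Over the 46 mice *Hoxb5*, *Hoxb6* and *Hoxb8* were called in both genotypes (3 of 23, beside 17.7% of all genes), with adjusted p of 0.0029, 0.0059 and 0.00042 in control and 0.017, 0.0035 and 0.0027 in Bmal1IEC-/- mice (quasi-likelihood F test in edgeR, Benjamini-Hochberg adjusted). *Hoxb3* (0.368) and *Hoxd10* (0.513) were not called in Bmal1IEC-/- mice in that fit.

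*Hoxb8*, an Antennapedia-type gene of the thoracic region, was the 1 member called in both genotypes over 48 mice, beside 18.8% of all genes. In control mice its levels were 42.8, 42.2, 48.9 and 33.3 CPM at CT1 and 23.4, 29.4, 27.3 and 27.8 CPM at CT21, so that these groups did not overlap. In Bmal1IEC-/- mice the levels were 41.3, 39.9, 44.96 and 49.7 CPM at CT5 and 32.3, 29.9, 26.1 and 31.8 CPM at CT17, again without overlap. The times set side by side for this gene and those below were picked with the levels known. A lack of overlap between them is therefore a description and no further test. Without SV384 and SV385, the group means of *Hoxb8* were higher from CT1 to CT9 than at CT17 and CT21 in both genotypes. JTK_cycle, a rank test for rhythms with a period of 24 h, placed its peak at CT6 in both (q = 0.022 in control and 0.092 in Bmal1IEC-/- mice, exact null distribution). *Hoxb8* was called for time in control and in Bmal1IEC-/- mice in each of the 48 fits that left out a mouse.

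**Figure D4:**
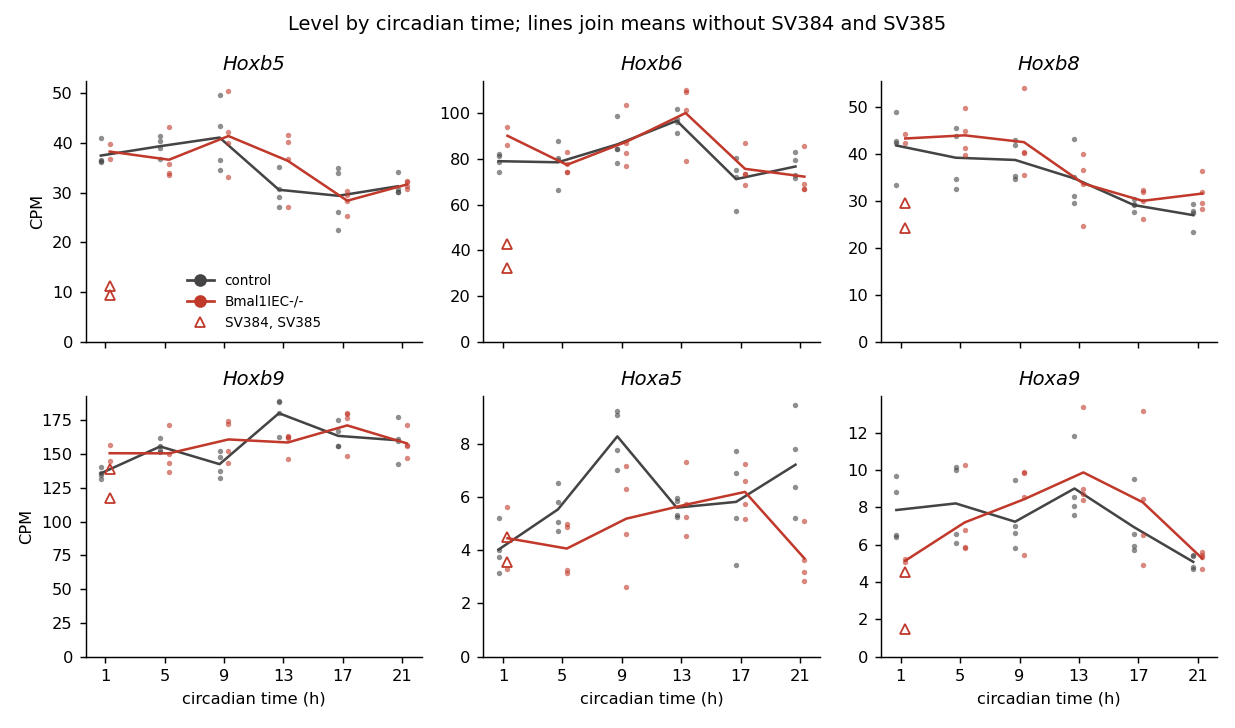
Level (CPM, vertical axis) of 6 Hox genes by circadian time in hours, with grey for control and red for Bmal1IEC-/- mice, points for mice and lines through the means without SV384 and SV385, which are open triangles. *Hoxb5* and *Hoxb8* are higher from CT1 to CT9 than at CT17 and CT21 in both genotypes, and *Hoxb6* is highest at CT13.

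*Hoxb5*, *Hoxb6* and *Hoxb9* had their highest group means at other times. *Hoxb5* was not called for time in control mice by edgeR over 48 mice (adjusted p = 0.211). It had 36.1, 41.0, 36.3 and 36.5 CPM in control mice at CT1 and 33.9, 34.9, 26.1 and 22.6 CPM at CT17, and its peak by JTK_cycle was CT6 (q = 0.0021 in control, exact null distribution). *Hoxb6* was highest at CT13 in both genotypes, with 102.0, 97.7, 91.1 and 96.1 CPM in control and 79.3, 110.2, 101.5 and 109.4 CPM in Bmal1IEC-/- mice. *Hoxb9* in control mice had 131, 136, 135 and 141 CPM at CT1 and 180.2, 189, 163 and 189 CPM at CT13, without overlap. In Bmal1IEC-/- mice *Hoxb9* did not pass the test for time (adjusted p = 0.084 in edgeR), and its group means over the 46 mice ran from 151 CPM at CT5 to 171 CPM at CT17. The largest ratio between group means over the 46 mice was 1.55 for *Hoxb8*, 1.399 for *Hoxb5*, 1.36 for *Hoxb6* and 1.33 for *Hoxb9* in control mice.

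*Hoxa5* and *Hoxa9*, the HoxA genes with the smallest adjusted p for time, were called in different genotypes. *Hoxa5* in control mice had 5.20, 3.75, 4.005 and 3.13 CPM at CT1 and 9.22, 9.08, 7.75 and 7.02 CPM at CT9, without overlap, and its adjusted p was 0.099 in Bmal1IEC-/- mice. *Hoxa9* in Bmal1IEC-/- mice had 13.4, 8.96, 8.73 and 8.41 CPM at CT13 and 5.42, 4.68, 5.34 and 5.61 CPM at CT21, without overlap, and its adjusted p was 0.141 in control mice. With muscle and epithelial markers as covariates, the adjusted p for time in control mice was 0.109 for *Hoxa5* and 0.210 for *Hoxa7* and stayed under 0.05 for *Hoxb8* and *Hoxb9*. For *Hoxa9* it was 0.036 in control and 0.0041 in Bmal1IEC-/- mice with these covariates (quasi-likelihood F test in edgeR). *Hoxa9* was thus called in both genotypes in that fit. *Hoxa7* kept its call in 13 of the 48 fits that left out a mouse. A course called in one genotype alone is not shown to differ between them. The interaction of genotype and time, which tests that difference, called 0 of 21 genes (3.995% of all genes) in edgeR, with an unadjusted p under 0.05 for 2 of 21 (18.6% of all genes). Over the 46 mice it called 0 of 23 (0.544% of all genes), with an unadjusted p under 0.05 for 2 of 23 (9.51% of all genes).

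JTK_cycle, run over all genes with a read, called 4 of 36 members in control mice at q under 0.05, beside 17.3% of all genes. They were *Hoxb5*, *Hoxb8*, *Hoxb9* (peak at CT14) and *Hoxc6* (peak at CT18, q = 0.022, exact null distribution), the last with a median of 5 reads. In Bmal1IEC-/- mice it called 1 of 37, beside 4.90% of all genes. This was *Hoxa9*, with a peak at CT12 (q = 0.012, exact null distribution). Without SV384 and SV385 it was again 1 of 37 (4.66% of all genes) but another gene, *Hoxb8* (q = 0.024), while *Hoxa9* had q = 0.060 (exact null distribution).

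*Hoxa7* had a wide spread between mice, from 2.34 to 28.1 CPM, with an SD of 5.05 around a mean of 8.22 CPM in control mice. The highest levels were 28.1 CPM in SV416 (Bmal1IEC-/- CT17), 26.5 CPM in SV395 (Bmal1IEC-/- CT13) and 24.8 CPM in SV420 (control CT9), and no other mouse exceeded 15.3 CPM. The log2 fold change between genotypes was 0.17 (SE 0.23). Over the 46 mice, with the means of the 12 groups removed, *Hoxa7* was compared with the 16 tested protein-coding genes within 1 Mb of HoxA, a comparison chosen after the spread of *Hoxa7* was seen. *Skap2*, which encodes an adaptor of the Src kinase pathway and lies at chr6:51857422-52012549 outside the cluster, gave r = 0.83 and rho = 0.77. The permutation p of 1e-05 was the smallest that 100000 permutations can give, and the Benjamini-Hochberg value over the 16 relations was 0.00016. Without the 2 mice farthest from the median of *Hoxa7*, r was 0.67, and within control and Bmal1IEC-/- mice it was 0.79 (n = 24) and 0.86 (n = 22). *Hoxa5* was the other gene of this family under 0.05 (r = 0.45, rho = 0.45, permutation p = 0.00176 and 0.00363, Benjamini-Hochberg 0.0141 and 0.029). *Skap2* ran to 64.9, 58.3 and 55.8 CPM in SV395, SV420 and SV416. Exons of the antisense gene *Hoxaas3* cover 20.4% of the exon length of *Hoxa7*, and its own level had a log2 fold change of -0.05 between genotypes.

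**Figure D5:**
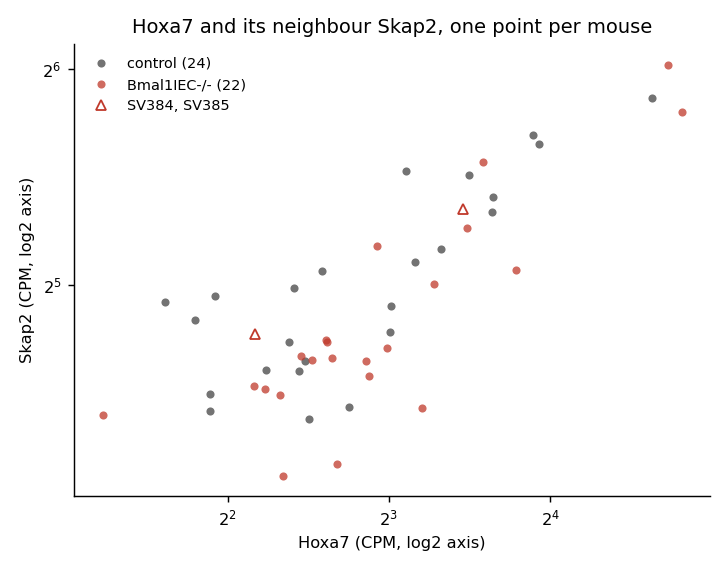
Level of *Hoxa7* (horizontal axis) against that of *Skap2* (vertical axis) in CPM on log2 axes, with a point for each control (grey) or Bmal1IEC-/- (red) mouse and open triangles for SV384 and SV385. The 3 mice with *Hoxa7* above 20 CPM have *Skap2* above 55 CPM.

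Among the 210 pairs of the 21 tested genes over the same 46 mice, no correlation had a Benjamini-Hochberg value under 0.05. The highest r was found for *Hoxb4* with *Hoxb6* (r = 0.61, rho = 0.60, permutation p = 0.00069 and 0.00035, Benjamini-Hochberg 0.0793 and 0.0735), *Hoxb5* with *Hoxb6* (r = 0.58, rho = 0.47, permutation p = 0.0015 and 0.00416, Benjamini-Hochberg 0.0793 and 0.16) and *Hoxb4* with *Hoxd8* (r = 0.55, rho = 0.52, permutation p = 0.00118 and 0.00252, Benjamini-Hochberg 0.0793 and 0.16). Without the 2 mice farthest from the median of the first gene, r was 0.59, 0.43 and 0.57. The median r over all pairs was 0.04.

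Genes that act with Hox proteins or on Hox clusters were counted in the same fits, in which 11.7% of all genes were called for genotype and 26.1% had an unadjusted p under 0.05. Of 9 cofactors (Pbx, Meis and Pknox genes, which bind DNA together with Hox proteins), 0 were called for genotype in edgeR or DESeq2, 3 had an unadjusted p under 0.05 in edgeR, and the lowest adjusted p was 0.078 for *Pbx3* (log2 fold change -0.18, quasi-likelihood F test in edgeR, Benjamini-Hochberg adjusted). For time, 3 of 9 were called in control and 2 of 9 in Bmal1IEC-/- mice. Of 22 chromatin regulators of Hox genes (Polycomb and Trithorax group proteins), 1 was called for genotype. *Wdr5*, a subunit of histone methyltransferase complexes, was higher in Bmal1IEC-/- mice (log2 fold change 0.12, adjusted p = 0.032) and lost the call over the 46 mice (adjusted p = 0.071 from the quasi-likelihood F test in edgeR, Benjamini-Hochberg adjusted). Of 44 non-coding genes of the clusters 10 were tested, and *Hoxa11os*, the antisense gene of *Hoxa11*, was lower (log2 fold change -0.44, adjusted p = 0.041) and lost the call over the 46 mice (adjusted p = 0.071 from the same test in edgeR). Since the use of strand in counting is not stated, *Hoxa11os* and *Hoxa11*, which share 35.0% of the exon length of *Hoxa11*, cannot be told apart fully. *Hoxa11* itself had a log2 fold change of -0.07 (SE 0.11).

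Of 20 other genes with a position along the gut, 13 were tested. For genotype, 2 were called higher and 2 lower in Bmal1IEC-/- mice in edgeR, beside 11.7% of all genes called. An unadjusted p under 0.05 was found for 7 of 13, beside 26.1% of all genes. *Cdx2*, *Slc10a2* and *Sis* were among the genes called. *Cdx2*, the homeobox gene that sets intestinal identity of the epithelium, was higher in Bmal1IEC-/- mice, with 195 and 242 CPM (log2 fold change 0.30, adjusted p = 0.00022 from the quasi-likelihood F test in edgeR, Benjamini-Hochberg adjusted). *Slc10a2*, the bile acid transporter of ileum that is also found in the proximal colon, was lower, with 339 and 216 CPM (log2 fold change -0.63, adjusted p = 6.2e-07 from the same test in edgeR). *Sis*, the sucrase-isomaltase of the small intestine, was lower, with 75.3 and 10.04 CPM (log2 fold change -2.90). These 3 genes kept their call over the 46 mice. *Gata4*, a gene of the proximal small intestine, had a median of 0 reads.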

How the data were processed

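Colon RNA of 48 mice was sequenced (paired reads of 150 bases). The authors trimmed reads with Trimmomatic 0.39, aligned them to mm10 with STAR 2.7.5c and counted reads of mapping quality 4 or more on exons with featureCounts 1.4.6, leaving out reads on overlapping features. The deposited values are the authors' raw read counts per gene. A count of 0 allows up to 3 reads, which covers counting error only. Counts were normalised by TMM and tested with edgeR 4.0.16 after filterByExpr (genotype with circadian time, or 12 groups for time, interaction and each circadian time). JTK_cycle was implemented with an exact null, and correlations used log2(CPM + 1). The genotype test recovered 196 of 198 genes simulated with a 2-fold change among 14465. Smaller genotype changes, such as those of the tested Hox genes (at most 0.38 in size on the log2 scale), were not simulated. The Hox genes described in full are those called, the highest per length in each cluster and paralog 13. From other lists, up to 3 genes of lowest adjusted p were named, and *Gata4*, *Hoxa11* and *Hoxaas3* were added after their values were seen. Members, lists and tests were chosen with earlier results of these data known. No batch is named in the labels. Symbols and positions came from GENCODE vM21. Alternatives were other normalisations, filters, thresholds and tests, marker covariates and leaving out mice. The labels do not pair mice across groups. Some results are not reported here.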

Additional observations from a re-analysis of the deposited data

Results flagged for a closer look

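In each of 252 sets of 4 replicates (21 tested genes in 12 groups), the highest or lowest mouse was compared with the other 3 by Dixon's gap ratio on log2 levels. The check picked out 13 of the 252 sets (5.16%, in 10 mice), which is about the 1 in 20 sets that chance alone picks.

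SV395 (Bmal1IEC-/- CT13) was picked out in 3 genes, with 26.5 CPM for *Hoxa7* (4.48 to 6.11 CPM in its group), 13.4 CPM for *Hoxa9* (8.41 to 8.96 CPM) and 146 CPM for *Hoxb9* (162 to 163 CPM). The same mouse had 16.1 CPM for the ileal gene *Fabp6*, with at most 4.498 CPM in control mice, while *Slc10a2* (265 CPM) lay inside the control range of 154 to 560 CPM. *Defa24*, the remaining small intestine marker, had 1.46 CPM, a low level, with at most 0.72 CPM in control mice. SV424 (control CT13) was lowest for *Hoxa2*, at 1.69 CPM (3.79 to 4.28 CPM in its group), and for *Hoxa13*, at 0.56 CPM (2.51 to 3.09 CPM). SV385 (Bmal1IEC-/- CT1) was lowest for *Hoxa9*, at 1.503 CPM (4.53 to 5.21 CPM).

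The other mice were picked out in 1 gene each. SV455 was highest for *Hoxb5* among control mice at CT1, at 41.0 CPM. SV441 was highest for *Hoxd11* among control mice at CT21, at 6.21 CPM. SV478 was highest for *Hoxd3* among Bmal1IEC-/- mice at CT5, at 1.76 CPM. SV450 was lowest for *Hoxa13* at CT13, at 1.36 CPM, and SV416 was lowest for *Hoxb9* at CT17, at 148 CPM, in the same genotype. At CT21, SV470 was highest for *Hoxb6* with 85.9 CPM and SV471 was lowest for *Hoxd8* with 12.02 CPM, both Bmal1IEC-/- mice.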

How the results depend on the processing

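Another scaling (DESeq2 size factors) changed no count of Hox genes by more than 1.5 times. Over the 46 mice without SV384 and SV385, genes called for time in control mice numbered 8 and for genotype at CT1 0, and the log2 fold change between genotypes turned positive for *Hoxa9* (0.0183), *Hoxa10* (0.0276), *Hoxb6* (0.0262), *Hoxb5* (0.0184) and *Hoxb4* (0.0401). Without SV395 as well (45 mice, added after the data were seen), the counts were 1 for genotype (9.64% of all genes), 9 for time in control (43.4%) and 3 for time in Bmal1IEC-/- mice (19.9%). DESeq2 called 2 genes for genotype, *Hoxd10* (log2 fold change -0.30) and *Hoxa5* (-0.33). With muscle and epithelial markers as covariates the counts were 7 for time in control (37.7% of all genes), 3 for time in Bmal1IEC-/- mice (24.8%) and 0 at CT1 (0.239%), and the sign turned for *Hoxd9* (0.11), *Hoxa9* (0.14), *Hoxa10* (0.13), *Hoxb9* (-0.00325), *Hoxb6* (0.0696), *Hoxb5* (0.10) and *Hoxb4* (0.14). Without a filter on low counts 2 of 37 genes were called for the interaction (5.23% of all genes). With p adjusted over phases alone, JTK_cycle called 9 of 37 genes in Bmal1IEC-/- mice and 3 over the 46 mice (15.3% of all genes in each). The cause of these changes was not tested.

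Leaving out each of the 48 mice in turn gave 0 to 2 genes called for genotype, 0 to 8 at CT1, 3 to 5 for time in control, 2 to 10 for time in Bmal1IEC-/- mice, 1 to 2 by JTK_cycle in Bmal1IEC-/- and 3 to 4 in control mice. For genotype, 2 genes were called without SV453, SV440 or SV437 and 1 without any of 14 other mice. At CT1, no gene was called without SV469 or SV385, 1 without SV454, SV468 or SV384, 2 without any of 16 other mice and 8 without SV480. For time in Bmal1IEC-/- mice, 2 genes were called without SV385 or SV450, 3 without SV384 or SV448, 9 without SV480 and 10 without SV479, and JTK_cycle called 2 there without SV384 or SV440. The log2 fold change between genotypes ran from -0.0553 to 0.0204 for *Hoxa10*, -0.35 to -0.28 for *Hoxa5*, -0.0207 to 0.0425 for *Hoxb3*, -0.0613 to 0.000108 for *Hoxb6*, -0.00631 to 0.0178 for *Hoxb9*, -0.34 to -0.26 for *Hoxd10* and -0.36 to -0.25 for *Hoxd11*. No paired analysis was possible because each mouse has its own number and the groups share none. Correlations with *Hoxb13* were not run, since it had at most 2 reads in a mouse, and leaving it out of the position measure gave no other value, since it was not tested. *Hoxa13* had 1 to 18 reads and the HoxC genes medians of at most 5 reads, so that small differences in these genes were not detectable at this depth.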
